A study of Mus musculus with 56 samples.

Results

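Cellular senescence, a lasting arrest of the cell cycle, was followed through 8 genes: Cdkn2a, Cdkn2b, Cdkn1a, Trp53, Lmnb1, Gdf15, Il6 and Glb1. They were taken by name out of 53379 genes counted in each library. The libraries came from untreated male C57BL/6 mice, an inbred strain, and covered the testis, the efferent ductules, the epididymis in 4 pieces (initial segment, caput, corpus and cauda) and the vas deferens. For each of these 7 regions there were 4 libraries from mice aged 3 months and 4 from mice aged 21 months, which gave 56 libraries in 14 groups. Each library was made from total RNA of a whole dissected region, so that fewer cells of a type and less RNA per cell cannot be told apart in any of these values.

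Senescent cells are recognised by a few arms of one programme. The Cdkn2a and Cdkn2b products block the cyclin D kinases CDK4 and CDK6 and so keep the retinoblastoma protein active, while p53, encoded by Trp53, turns on Cdkn1a, whose product p21 blocks CDK2. Loss of lamin B1 (Lmnb1) from the nuclear lamina, secreted factors such as interleukin 6 (Il6) and growth differentiation factor 15 (Gdf15), and a rise in lysosomal β-galactosidase (Glb1), the enzyme behind the usual staining test, are further marks. None of these genes is specific to senescence, and testicular germ cells, immune cells and absorptive epithelia are known to use several of them.

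In the mouse genome build GRCm38 with the GENCODE M21 annotation, Cdkn2a lies at chr4:89274471-89294653 and Cdkn2b at chr4:89306299-89311039, both on the minus strand and 11645 bases apart. Cdkn1a lies at chr17:29090976-29100727, Trp53 at chr11:69580359-69591873, Gdf15 at chr8:70629393-70632456 on the minus strand, Il6 at chr5:30013114-30019981 and Glb1 at chr9:114401076-114474898. Of Cdkn1a, 273 exonic bases overlap AC167363.2 on the opposite strand, and of Glb1, 165 exonic bases overlap Tmppe on the same strand, so a part of the reads of these genes could be shared with their neighbours. The counting setting for strand is not given in the sources used here.

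Cdkn2a makes 2 proteins from 1 gene, and the count of the gene cannot separate them. The transcript Cdkn2a-201 encodes the CDK inhibitor p16Ink4a in 504 coding bases, and Cdkn2a-202 encodes p19Arf, which protects p53 from MDM2, in 507 coding bases. Their start sites are 12461 bases apart, they share 575 exonic bases, and 277 and 320 exonic bases are found in one of them alone. The first 60 coding bases of each, with the start codon in capitals, differ because the first exons differ. The shared second exon is read from its first base in p16Ink4a, whose first exon holds 126 coding bases, and out of step with it in p19Arf, whose first exon holds 190. These stretches are shown because every Cdkn2a value below is a sum over both products.
Cdkn2a-201, chr4:89282052-89282111, minus strand: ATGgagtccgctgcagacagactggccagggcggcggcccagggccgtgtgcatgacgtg
Cdkn2a-202, chr4:89294464-89294523, minus strand: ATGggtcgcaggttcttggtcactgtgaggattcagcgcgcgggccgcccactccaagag
Shared second exon, chr4:89276926-89276985, minus strand: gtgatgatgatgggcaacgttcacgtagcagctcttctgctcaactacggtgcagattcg

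The 250 bases upstream of a start site are shown for the genes that rose with age, from RefSeq on GRCm38.p6. The lower-case runs carry each motif match in capitals, searched on both strands. The GC box was searched as GGGCGG. The TATA box was searched as TATAAA. The E-box was searched as CACGTG. The stress response element was searched as TGATGCAA or TGATGAAA. The CCAAT box was searched by the letters of its name, and the p53 decamer, which pairs with another to form a full p53 response element, by its usual consensus. Of 32851 promoters of this length, 32.7% held a GC box, 12.4% a TATA box, 6.02% an E-box, 33.8% a CCAAT box, 1.67% a stress response element and 7.13% a p53 decamer. The p16Ink4a promoter held 7 CpG and no match. The p19Arf promoter held 40 CpG, against a median of 6 over all promoters, and 2 GC boxes. The upstream Cdkn1a promoter held 2 p53 decamers. The Trp53 promoter held 1 p53 decamer, a CCAAT box and a TATA box, the last read on the opposite strand near the end furthest from the start site. The Gdf15 stretch shown held an E-box and a CCAAT box, and it lies inside the GENCODE span of the gene. The downstream Cdkn1a start held 2 GC boxes. The other Gdf15 start, which is that of the GENCODE span, held no match. RefSeq promoters were looked up by symbol for 7 of the 8 genes, and Lmnb1 was left out of this step. A match is a run of letters and was not tested for binding.
p16Ink4a start of Cdkn2a, chr4:89282193-89282442, minus strand: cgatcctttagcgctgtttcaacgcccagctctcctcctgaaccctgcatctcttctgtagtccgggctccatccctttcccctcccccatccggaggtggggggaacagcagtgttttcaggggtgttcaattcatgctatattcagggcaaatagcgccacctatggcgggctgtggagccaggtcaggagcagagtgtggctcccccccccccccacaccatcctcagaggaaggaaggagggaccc
p19Arf start of Cdkn2a, chr4:89294620-89294869, minus strand: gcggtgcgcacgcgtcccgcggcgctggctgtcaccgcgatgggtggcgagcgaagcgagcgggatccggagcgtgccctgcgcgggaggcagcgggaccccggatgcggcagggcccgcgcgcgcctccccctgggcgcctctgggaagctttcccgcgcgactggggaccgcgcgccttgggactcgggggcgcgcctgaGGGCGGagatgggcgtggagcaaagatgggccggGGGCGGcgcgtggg
Cdkn1a, chr17:29090729-29090978, plus strand: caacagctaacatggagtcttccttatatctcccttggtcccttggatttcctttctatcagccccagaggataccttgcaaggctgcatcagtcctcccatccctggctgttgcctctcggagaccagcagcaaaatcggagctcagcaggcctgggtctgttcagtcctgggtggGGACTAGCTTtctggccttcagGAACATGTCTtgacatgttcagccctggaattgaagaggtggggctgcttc
Trp53, chr11:69580109-69580358, plus strand: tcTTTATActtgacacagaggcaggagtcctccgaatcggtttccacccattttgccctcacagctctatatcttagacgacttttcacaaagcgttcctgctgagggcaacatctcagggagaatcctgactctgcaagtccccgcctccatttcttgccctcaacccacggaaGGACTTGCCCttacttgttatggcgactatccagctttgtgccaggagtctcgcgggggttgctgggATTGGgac
Gdf15, chr8:70632096-70632345, minus strand: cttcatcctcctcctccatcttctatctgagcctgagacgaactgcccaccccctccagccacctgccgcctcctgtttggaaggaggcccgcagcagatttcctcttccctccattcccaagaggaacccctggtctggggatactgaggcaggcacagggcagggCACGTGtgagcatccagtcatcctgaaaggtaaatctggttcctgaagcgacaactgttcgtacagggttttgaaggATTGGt

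The libraries held between 11125279 and 20561967 counts. All 13 region markers were highest in their labelled region at both ages, among them Prm2 in the testis and Akr1b7 in the vas deferens. Some libraries stood apart. In the second 3-month caput library, 49.7% of the counts were on Gm42418, a predicted gene that collects ribosomal RNA reads. Its share did not overlap between the ages in the efferent ductules, where it was higher at 21 months, and overlapped in the 6 other regions. The third 3-month cauda library had summed fibroblast markers of 9232 CPM (counts scaled to the size of the library), against 2160 to 2427 in the other 3, and the second 21-month cauda library agreed least with its group. The first and the fourth 21-month libraries of the efferent ductules had the lowest totals of the series, 11442133 and 11125279 counts. Age effects without these libraries are given beside several of the results below. Levels below are CPM scaled over all 56 libraries, whereas the age tests scale the 8 libraries of a region on their own. With the scaling over all libraries, the median age difference over the whole gene table was -0.12 (log2) for efferent ductules and -0.15 for initial segment, so that CPM at 21 months read slightly low there beside the tests. For vas deferens it was 0.08, so that CPM at 21 months read slightly high there. The tests of a difference in age effect among regions share this scaling.

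The levels of all 8 genes differed widely, and the plot of levels by library shows each value. Per kilobase of exon at 3 months, Glb1 was the highest of the 8 in every region but the testis, where Lmnb1 led with 6.02 CPM per kilobase and Glb1 had 5.198. In the corpus epididymis Glb1 reached 74.2 CPM per kilobase, Cdkn1a 11.6, Trp53 7.36, Lmnb1 5.50, Gdf15 2.85, Cdkn2b 0.579 and Cdkn2a 0.116. Il6 stayed at or below 0.0195 CPM per kilobase in all 14 groups. The level of each of the 7 other genes differed among the regions, at 3 months (7 of 7 genes tested, 91.2% of all genes) and at 21 months (7 of 7, 91.3% of all genes). With so high a share of all genes, this count says nothing particular about these 7.

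**Figure D1:**
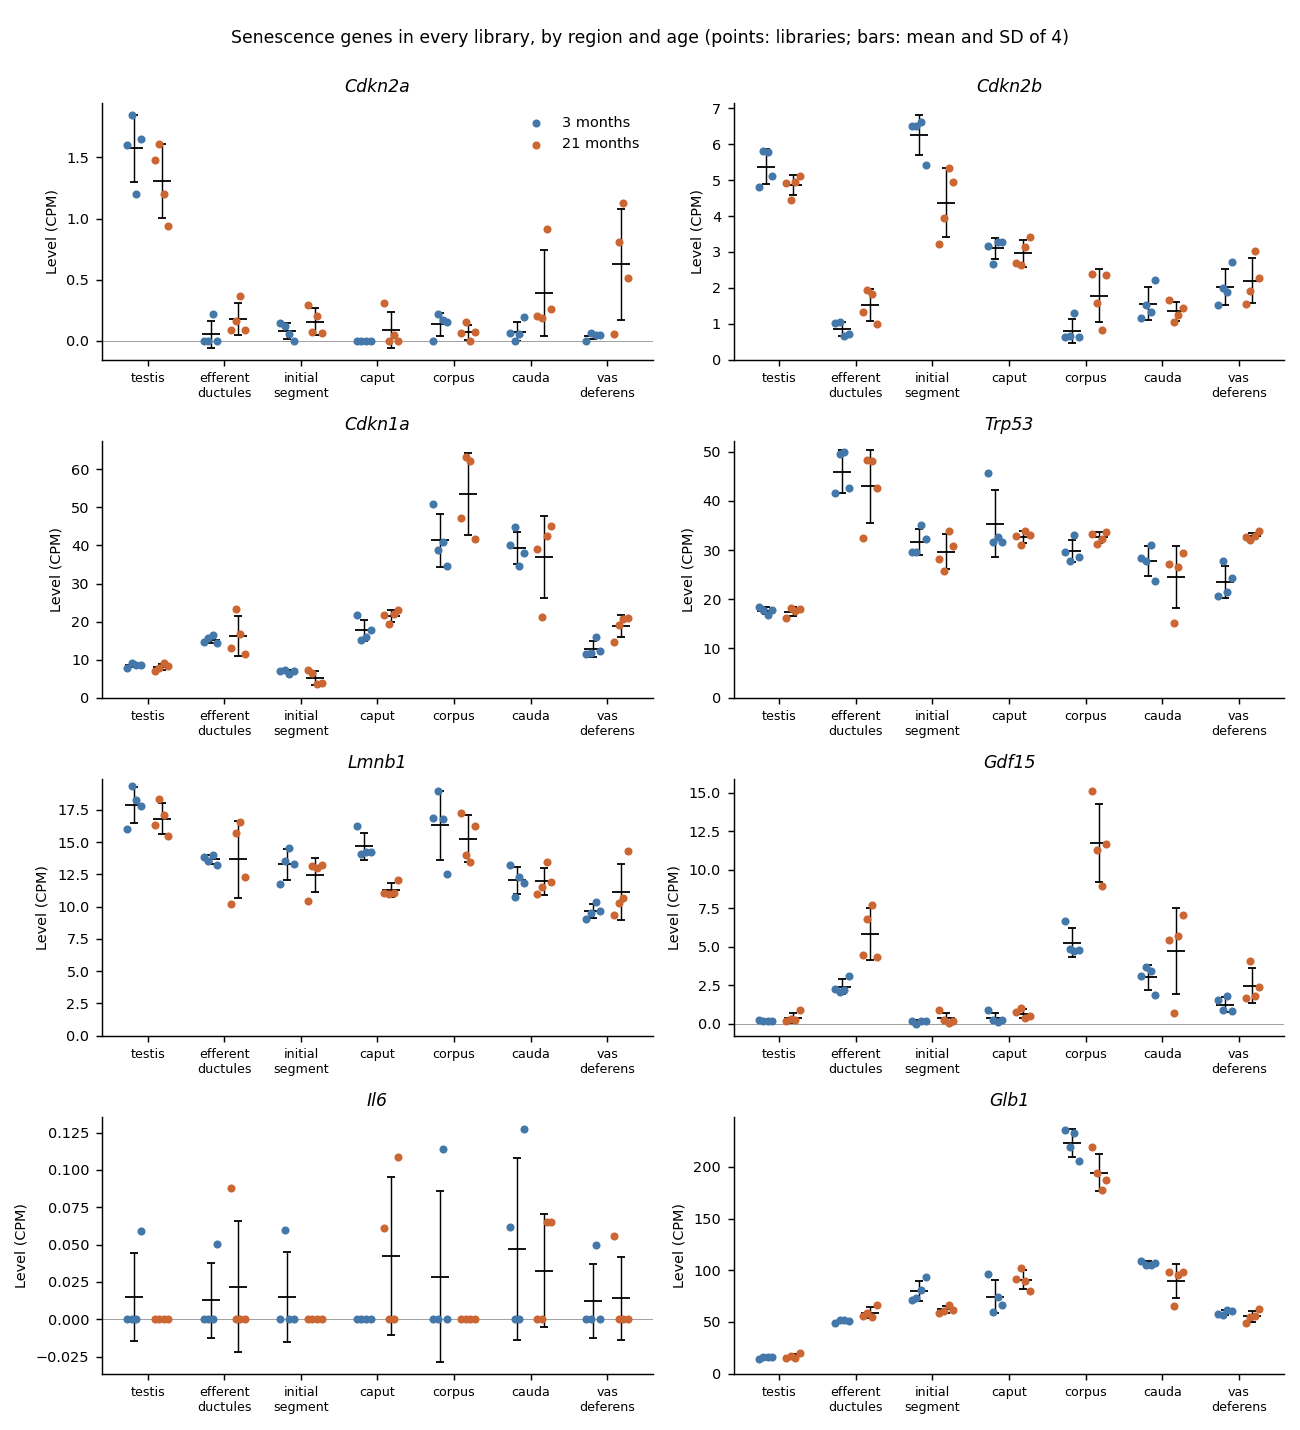
Level of each of the 8 genes in CPM (vertical axis) in every library, by region (horizontal axis) and age (blue 3 months, orange 21 months), with black bars for the mean and SD of 4 libraries. Gdf15 sits higher at 21 months in the efferent ductules and corpus, where the ages do not overlap, and Cdkn2a is highest in the testis at both ages.

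**Figure D2:**
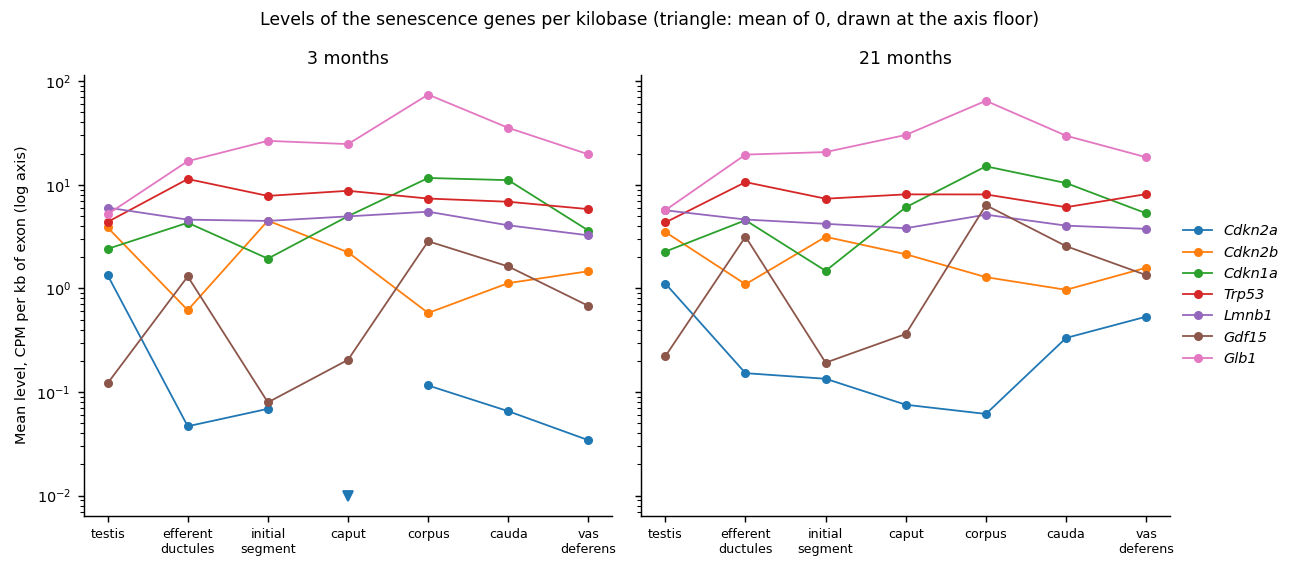
Group mean level in CPM per kilobase of exon on a log axis, along the tract from testis to vas deferens, at 3 months (left) and 21 months (right), with 1 line per gene and no error bars. Glb1 peaks in the corpus at 74.2 and 64.6 CPM per kilobase, and Cdkn2a lies below the other genes drawn in most regions.

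Cdkn2a was a testis transcript at 3 months. The 4 testis libraries held 28, 34, 22 and 28 counts, which gave 1.57 ± 0.271 CPM (SD, n = 4). Outside the testis, the 24 libraries of the 6 other regions held between 0 and 4 counts each, and the caput held none in any of its 4. The testis lay above the corpus, the next region in order, by 3.37 ± 0.61 on the log2 scale (SE, adjusted p = 1.63e-05), and no neighbours further down the order were told apart. Between ducts, the corpus with 8 counts and the caput with none differed (adjusted p = 0.0255), and the other pairs were not told apart. Between pairs of regions, 49.6% of all gene comparisons passed the same test at 3 months and 48.5% at 21 months.

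Cdkn2a rose with age in the vas deferens. The 3-month libraries held 0, 1, 1 and 1 counts and the 21-month libraries 1, 16, 20 and 9. Of the old libraries, 3 stood above every young one, and the first old library held as few counts as the young. The pooled 46 counts against 3 gave a ratio of 15.9, with a 95% interval of 5.11 to 79.8 that covers counting error only. The edgeR test called the rise (adjusted p = 0.0151) where 11.4% of all genes were called higher and 8.47% lower, the largest shares of any region. It was called in 16 of 16 other settings that kept the gene, with adjusted p between 0.00132 and 0.0468, including those that left out 1 library. The usual filter of edgeR on low counts left Cdkn2a out of the vas deferens altogether.

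In the other ducts Cdkn2a was not called or, in the caput, not tested. The cauda held 1, 0, 1 and 3 counts at 3 months and 3, 3, 14 and 4 at 21 months. This was a ratio of 5.15 (95% interval 1.93 to 17.3, counting error only) with adjusted p = 0.390, and 14 of the 24 old counts lay in the third library. Without the pair of cauda libraries that stood apart, adjusted p was 0.211. The efferent ductules went from 4 counts in 1 library to 1, 3, 6 and 1 (adjusted p = 0.338), the initial segment from 5 to 10 counts in all (adjusted p = 0.582) and the corpus from 8 to 4 (adjusted p = 0.720). In the caput, which had too few counts for a test, no counts became 6, and 5 of the 6 came from 1 library. Against a floor of 3 counts over the young group this was 1.67-fold. That value takes the 6 counts as exact and is no lower limit on the change. The testis held 27, 30, 22 and 17 counts at 21 months, a level of 1.31 ± 0.300 CPM that overlapped the young libraries (log2 fold change -0.27 ± 0.24, adjusted p = 0.761). At 21 months the testis (1.31 CPM) and the vas deferens (0.625 ± 0.454 CPM) were no longer told apart, with a log2 difference of 0.90 ± 0.53 (adjusted p = 0.126).

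Cdkn2b, which encodes the sister inhibitor p15Ink4b, had another order along the tract. At 3 months it was highest in the initial segment (6.26 ± 0.564 CPM) and testis (5.38 ± 0.499), which were not told apart (adjusted p = 0.173). The caput followed with 3.10 ± 0.287, below the testis (adjusted p = 0.0110), then the vas deferens with 2.04 ± 0.501 (adjusted p = 0.0257 against the caput) and the cauda with 1.56 ± 0.469. The efferent ductules (0.857 ± 0.203) lay below the cauda (adjusted p = 0.00886) and were not told apart from the corpus (0.805 ± 0.339), with a log2 difference of 0.03 ± 0.28.

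The span between high and low regions was narrower in old mice, 3.61-fold against 7.78-fold in young ones. In the initial segment the young libraries had 6.50, 6.52, 6.62 and 5.42 CPM and the old ones 3.23, 3.95, 5.35 and 4.96. With the scaling of the test the ages overlapped, at 5.50 to 6.57 CPM in the young and 3.41 to 5.85 in the old libraries, and the log2 fold change was -0.38 ± 0.18 (adjusted p = 0.285). In the corpus the young libraries had 0.641, 0.648, 1.31 and 0.619 CPM and the old ones 2.39, 1.58, 0.823 and 2.35. Here 3 of 4 old libraries lay above all the young ones, with a log2 fold change of 1.11 ± 0.37 (adjusted p = 0.120). In the efferent ductules the level went from 0.857 to 1.52 ± 0.442 CPM (log2 fold change 0.90 ± 0.32, adjusted p = 0.112). In 1 fit of all 56 libraries, both of these passed, with adjusted p = 0.0331 in the corpus and 0.0419 in the efferent ductules. Without the first and the fourth old libraries of the efferent ductules, the latter had a log2 fold change of 1.15 (adjusted p = 0.0238).

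The age effect on Cdkn2b differed among the regions (adjusted p = 0.00404), as did those on Glb1 (adjusted p = 0.00738) and Cdkn2a (adjusted p = 0.0144). These were 3 of the 8 genes in a test that called 20.2% of all genes. For Cdkn2b the fitted changes ran from -0.38 in the initial segment to 1.11 in the corpus. The call was lost for all 3 genes without the libraries numbered 2 or without those numbered 4, and for Cdkn2a and Glb1 without those numbered 3. Without the testis libraries it was lost for Cdkn2a (adjusted p = 0.157). Under scaling by library size alone it was lost for Cdkn2b (adjusted p = 0.124) and Glb1 (adjusted p = 0.145).

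Trp53, which encodes p53, varied little along the tract, 2.59-fold between the highest and lowest region at 3 months. The efferent ductules had 45.9 ± 4.42 CPM, the caput 35.4 ± 6.84, the initial segment 31.6 ± 2.65, the corpus 29.8 ± 2.31, the cauda 27.7 ± 3.04, the vas deferens 23.6 ± 3.22 and the testis 17.7 ± 0.650. Only the testis stood apart from its neighbour in this order, the vas deferens (log2 difference 0.58 ± 0.12, adjusted p = 1.04e-04). The caput value rested in part on its first young library, with 45.6 CPM against 31.6 to 32.7 in the others.

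Trp53 rose with age in the vas deferens. The young libraries had 20.7, 27.8, 21.4 and 24.3 CPM and the old ones 32.7, 32.1, 32.9 and 33.8. All 4 old libraries lay above all 4 young ones and close to each other. The log2 fold change was 0.42 ± 0.10 (adjusted p = 0.0155), and the call was lost without the first or the third young library (adjusted p = 0.0534 and 0.0521). A difference of the Trp53 age effect among the 7 regions was not called (adjusted p = 0.0666). The age effect in the vas deferens exceeded the mean of the 6 other regions by 0.54 ± 0.14 on the log2 scale (adjusted p = 0.0102). Of the 258839 such tests of a gene in a region, 3.26% were called. Among the members, only this contrast and that of Glb1 in the caput were called. The contrast of Cdkn2b in the corpus was larger and not called (1.13 ± 0.30, adjusted p = 0.13). These contrasts used the scaling over all 56 libraries, under which the median age difference of all genes was 0.08 in the vas deferens. With each region scaled on its own, Trp53 had log2 fold changes between -0.18 and 0.12 in the 6 other regions, none called. With the scaling of the test the old corpus libraries, at 25.65 to 27.7 CPM, lay above the young ones, at 22.3 to 25.4. At 21 months the vas deferens, at 32.9 ± 0.683 CPM, stood second in the order, below the efferent ductules (adjusted p = 0.0282) and not told apart from the caput (log2 difference 0.0044 ± 0.14).

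Cdkn1a, the p53 target that encodes p21, was a transcript of the distal epididymis. At 3 months the corpus had 41.3 ± 6.94 CPM and the cauda 39.4 ± 4.29, which were not told apart (adjusted p = 0.476). The caput had 17.7 ± 2.83, lower than the cauda (adjusted p = 1.89e-07), and the efferent ductules 15.3 ± 0.922, lower than the caput (adjusted p = 0.0298). The vas deferens had 12.8 ± 2.14, and the testis, with 8.54 ± 0.571, lay below it (adjusted p = 6.84e-06). The initial segment was lowest with 6.89 ± 0.505, and the corpus lay 6.00-fold above it.

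Cdkn1a rose with age in the vas deferens. The young libraries had 11.5, 11.7, 16.0 and 12.2 CPM and the old ones 14.6, 19.2, 20.7 and 20.9. The ages overlapped, since the third young library lay above the first old one. The log2 fold change was 0.49 ± 0.14 (adjusted p = 0.0310), a 1.40-fold rise. It was no longer called without the first, the second or the fourth young library or the third old one (adjusted p between 0.0670 and 0.0843), or under scaling by library size alone (adjusted p = 0.0596). A difference of the age effect on Cdkn1a among regions was not called (adjusted p = 0.0828).

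In the caput Cdkn1a had a log2 fold change of 0.23 ± 0.12 (adjusted p = 0.234). The first young library was again the highest of its group, and without it the value was 0.31 (adjusted p = 0.0412). In the corpus it had 0.37 ± 0.16 (adjusted p = 0.242), which became 0.36 (adjusted p = 0.0408) with no filter on low counts. In the efferent ductules the old libraries ranged from 11.5 to 23.4 CPM, with the first and the fourth, the shallowest, at 13.1 and 11.5. Without those libraries the log2 fold change went from 0.15 to 0.42 (adjusted p = 0.0279). In the initial segment the old libraries had 7.16, 6.42, 3.61 and 3.80 CPM, the first pair near the young level and the other pair well under it.

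**Figure D3:**
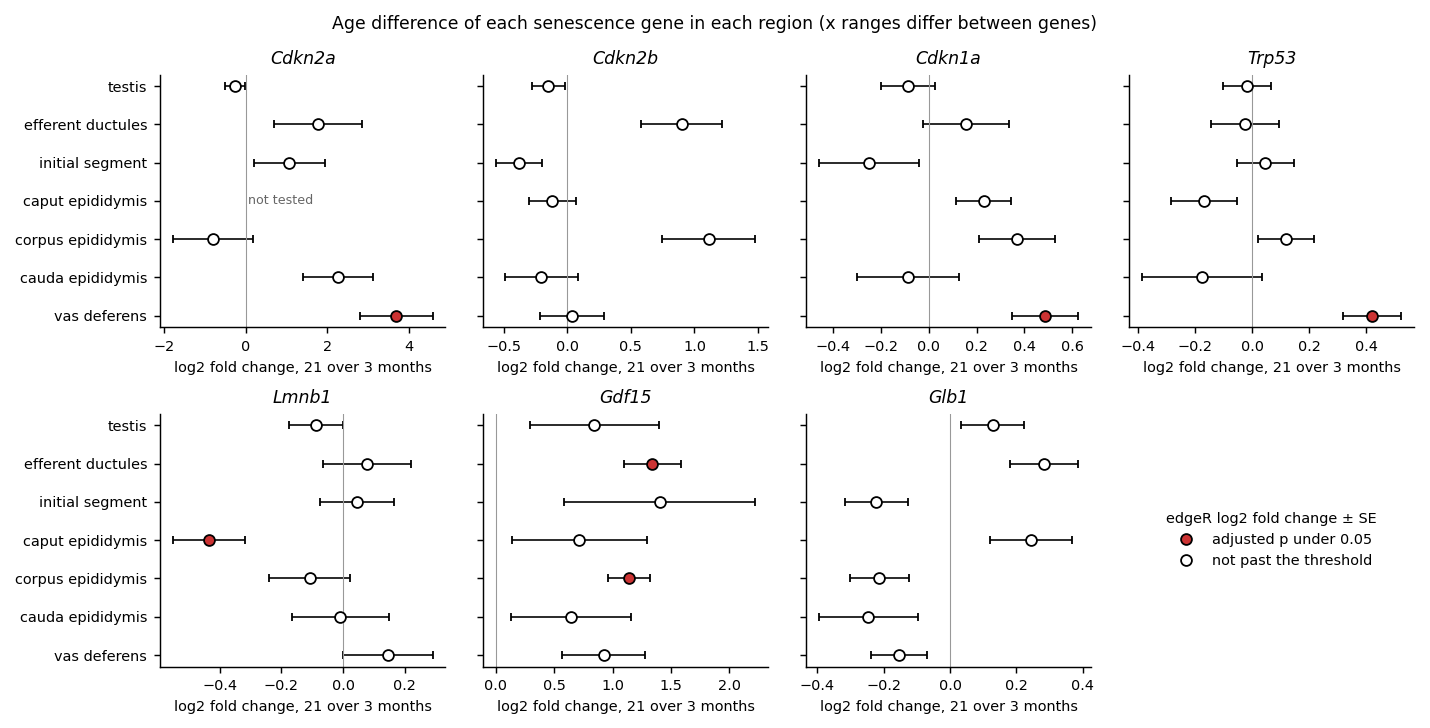
log2 fold change between 21 and 3 months (horizontal axis) with its SE in each region (vertical axis), 1 panel per gene, without Il6. Filled points mark the 6 values with an adjusted p under 0.05, and Gdf15 lies to the right of 0 in all 7 regions.

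Lmnb1, at 56707813 to 56753424 on the plus strand of chromosome 18, encodes a component of the nuclear lamina and was the most even of the tested genes. At 3 months it ran from 17.8 ± 1.40 CPM in the testis to 9.63 ± 0.537 in the vas deferens, a 1.85-fold span, and no neighbours in the order were told apart at either age. It fell with age in the caput. The young libraries had 16.2, 14.1, 14.2 and 14.2 CPM and the old ones 11.07, 10.97, 11.03 and 12.05. The groups did not overlap, and the log2 fold change was -0.44 ± 0.12 (adjusted p = 0.0399), where 5.05% of all genes were called lower and 3.09% higher. This call was the least steady of the 6, since it held in 5 of 17 other settings. Without the second young library, the one rich in Gm42418, adjusted p was 0.0698. It was lost without any of the 4 old libraries (adjusted p between 0.0791 and 0.122) and under scaling by library size alone, which left a log2 fold change of -0.21 (adjusted p = 0.845). It was also lost without the third or the fourth young library (adjusted p = 0.0600 and 0.0609). In the 6 other regions the log2 fold changes lay between -0.11 and 0.15, and none was called.

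Gdf15, a secreted stress hormone of the TGF-β family, varied widely among regions. At 3 months the corpus had 5.28 ± 0.945 CPM, the cauda 3.02 ± 0.816, the efferent ductules 2.42 ± 0.491, the vas deferens 1.25 ± 0.476, the caput 0.379 ± 0.346, the testis 0.225 ± 0.0455 and the initial segment 0.147 ± 0.0990. The corpus lay 35.9-fold above the initial segment. The corpus and cauda differed (adjusted p = 0.0424), as did the efferent ductules and vas deferens (adjusted p = 0.0484) and the vas deferens and caput (adjusted p = 0.00256), while the other neighbours were not told apart.

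Gdf15 was higher at 21 months in the mean of every region, and the rise was called in 2 of them. In the efferent ductules the young libraries had 2.28, 2.06, 2.19 and 3.14 CPM and the old ones 4.47, 6.80, 7.73 and 4.37. All old libraries lay above all young ones, with a log2 fold change of 1.34 ± 0.24 (adjusted p = 0.0148). In this region 4.00% of all genes were called higher and 2.98% lower. Gm42418 took 4.93 to 22.2% of the counts in the old libraries here and 1.27 to 3.29% in the young, without overlap. Its share was highest in the first and the fourth old library (22.2% and 18.5%), the pair with less Gdf15, and its part in the result was not tested. Without the first or the third young library the call was just lost (adjusted p = 0.0575 and 0.0517), and without the shallow first and the fourth old library the value was 1.61 (adjusted p = 5.2e-04).

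In the corpus the young libraries had 6.70, 4.89, 4.74 and 4.79 CPM and the old ones 15.1, 11.3, 8.96 and 11.7. Again the groups did not overlap, and the log2 fold change was 1.14 ± 0.18 (adjusted p = 0.00206), in a region where 1.5% of all genes were called higher and 1.47% lower. Gm42418 took 10.4 to 26.3% of the counts in the young libraries of the corpus and 17.0 to 36.0% in the old. This call was lost only in the fit of all 56 libraries together (adjusted p = 0.147). In the vas deferens the level went from 1.25 to 2.49 ± 1.11 CPM (log2 fold change 0.92 ± 0.36, adjusted p = 0.0911).

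In the cauda the old libraries had 5.42, 0.734, 5.74 and 7.05 CPM, with the second far below the rest, against 3.08, 3.69, 3.45 and 1.85 in the young ones. The log2 fold change was 0.64 ± 0.51 (adjusted p = 0.680). Without that library and the third young one, which also stood apart, it was 1.11 (adjusted p = 0.00730). The testis, initial segment and caput had between 9 and 46 counts of Gdf15 in a group, and their log2 fold changes of 0.84, 1.40 and 0.72 had SEs between 0.55 and 0.82. A difference of the age effect among regions was not called for Gdf15 (adjusted p = 0.989).

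Il6, an interleukin of the senescence secretome, was near the limit of detection. Over all 56 libraries 16 counts were found, 9 at 3 months and 7 at 21 months, and no library held more than 2. No region reached the 10 counts needed for a test. The ratio of old to young over the whole tract was 0.810 with a 95% interval of 0.256 to 2.44 for counting error, so a change of Il6 was not detectable at this depth.

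Glb1, the lysosomal β-galactosidase gene, was highest in the corpus at 3 months (223 ± 13.9 CPM). The cauda had 107 ± 2.21, which was lower (adjusted p = 9.3e-10), and the initial segment 79.8 ± 9.96, lower again (adjusted p = 0.00810). The caput, with 74.3 ± 16.0, was not told apart from the initial segment. The vas deferens had 59.1 ± 2.54, the efferent ductules 50.8 ± 1.40 and the testis 15.6 ± 0.724, and each lay below the one before it (adjusted p = 0.00974, 0.00977 and 8.95e-15). The span from testis to corpus was 14.3-fold.

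The age difference of Glb1 had a different sign in different regions and was not called in any one. In the efferent ductules the young libraries had 48.8, 51.6, 51.7 and 51.2 CPM and the old ones 55.4, 59.2, 54.5 and 66.1, all above the young (log2 fold change 0.28 ± 0.10, adjusted p = 0.120). DESeq2 called this difference (0.31, adjusted p = 0.0359), and without the first and the fourth old library it was 0.19 (adjusted p = 0.122). In the initial segment the young libraries had 71.3, 73.4, 81.3 and 93.3 CPM and the old ones 58.9, 61.0, 66.9 and 62.1, all below the young (log2 fold change -0.22 ± 0.10, adjusted p = 0.212). With the scaling of the test the ages overlapped, the young libraries spanning 68.4 to 94.6 CPM and the old ones 62.25 to 73.2. With the scaling over all 56 libraries the latter was -0.36 (adjusted p = 0.0169), in a region where that scaling lowered the median of all genes as given above.

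In the caput the young libraries had 96.7, 59.95, 73.8 and 66.7 CPM and the old ones 91.5, 103, 89.6 and 80.5. The overlap came from the first young library, and the log2 fold change of 0.24 ± 0.12 (adjusted p = 0.244) became 0.35 (adjusted p = 0.0216) without it and 0.22 (adjusted p = 0.363) without the second. In the corpus (-0.21 ± 0.09, adjusted p = 0.223), cauda (-0.25 ± 0.15, adjusted p = 0.586, or -0.09 and 0.573 without the pair that stood apart) and vas deferens (-0.15 ± 0.08, adjusted p = 0.223) the log2 fold changes were negative, and in the testis 0.13 ± 0.09 (adjusted p = 0.688). In the cauda all old libraries lay below all young ones with either scaling (60.2 to 94.8 against 95.9 to 103.9 CPM with that of the test), and in the corpus they did so only with the scaling of the test (143 to 171 against 173 to 197 CPM). Without the fourth old library of the vas deferens, its value was -0.23 (adjusted p = 0.0363). The age effect in the caput differed from the mean of the 6 other regions by 0.38 ± 0.12 on the log2 scale (adjusted p = 0.0458). Over all genes, 3.26% of such tests were called.

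In all, 6 of 48 tests of a member in a region were called, 5 higher and 1 lower. Over all genes and regions, 3.31% of the 182073 tests were called higher and 2.96% lower. The vas deferens held 3 of them (Cdkn2a, Cdkn1a and Trp53), the efferent ductules (4.00% of all genes higher) and corpus (1.5%) 1 each (Gdf15) and the caput 1 (Lmnb1, 5.05% of all genes lower). The testis held none, where 0.353% of all genes were called higher and 0.210% lower, the cauda none (0.0700% and 0.0583%), and the initial segment none (3.35% and 3.01%). At an unadjusted p under 0.05, these 3 regions held 0, 1 and 1 of 7 tests, and DESeq2 called none in them. In the vas deferens, 3 of 7 members stand beside 11.4% of all genes called higher. With an unadjusted p and a limit of 1.5-fold in place of the adjusted p, 7 of the 48 passed, against 10.3% of the tests over all genes and regions.

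Markers of immune, stromal and muscle cells moved with age in several regions. In the initial segment, where no member was called, 5 of 10 T cell, 3 of 8 macrophage and 3 of 6 tested B and plasma cell markers were higher, and 3 of 6 fibroblast and 2 of 5 smooth muscle markers lower (3.35% of all genes were higher and 3.01% lower). Germ cell markers moved furthest there, with 8 of 10 lower, a median log2 fold change of -2.69 and sums of 32.6 to 114 CPM at 3 months and 8.62 to 24.1 at 21 months. Also lower were 2 of 13 proliferation, 1 of 6 endothelial and 1 of 5 adipocyte markers. In the vas deferens, 10 of 10 T cell markers and 8 of 8 B and plasma cell markers were called higher, where 11.4% of all genes were higher and 8.47% lower. Their summed levels went from 6.66 to 11.5 CPM up to 26.6 to 76.2 for T cells, and from 18.5 to 37.3 up to 781 to 1628 for B and plasma cells. Of 5 smooth muscle markers 4 were higher, of 6 fibroblast markers 5 were lower (2119 to 2601 CPM against 980 to 1432), and of 4 epithelial markers 3 were higher. Macrophage markers were higher for 3 of 8, with sums of 167 to 228 CPM at 3 months and 176 to 278 at 21 months, and 2 of 6 endothelial markers were lower. Of the neutrophil markers 1 of 5 could be tested and was higher, as was 1 each of 10 germ cell and 4 tested Sertoli cell markers, and of 13 proliferation markers 1 was higher and 1 lower. The order of the old libraries was not the same for Cdkn2a and the lymphoid lists. The first old library, with 1 count of Cdkn2a, had summed B and plasma cell markers of 1170 CPM and T cell markers of 42.8, and the third, with 20 counts, had 948 and 28.01. The second and the fourth, with 16 and 9 counts, held between them the lowest and the highest sums of both lists. These were 781 and 1628 CPM for B and plasma cells and 26.6 and 76.2 for T cells. The part of these cells in the rise of Cdkn2a, Cdkn1a and Trp53 was not tested.

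**Figure D4:**
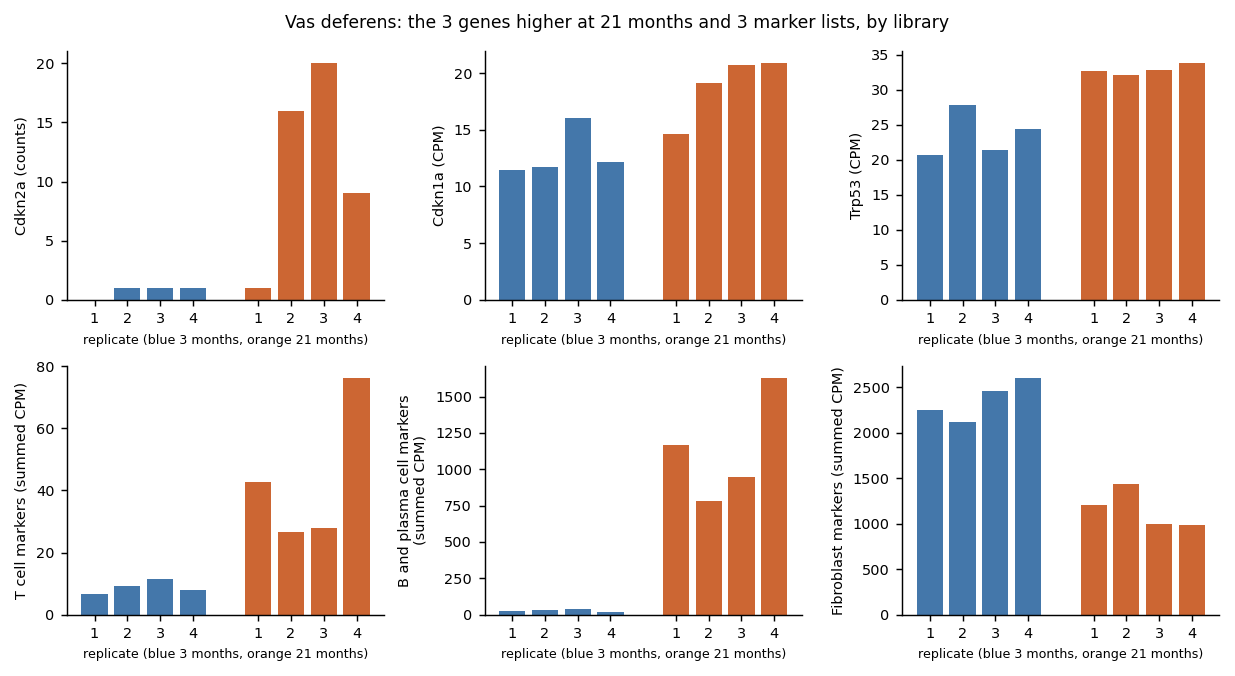
Values in each of the 8 vas deferens libraries, numbered by replicate (horizontal axis, blue 3 months, orange 21 months). The upper row shows Cdkn2a in counts and Cdkn1a and Trp53 in CPM, and the lower row the summed CPM of T cell, B and plasma cell and fibroblast markers. The first old library holds 1 count of Cdkn2a and 1170 CPM of B and plasma cell markers, which run from 781 to 1628 CPM over the old libraries.

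Beside the rise of Gdf15 in the efferent ductules, 5 of 8 macrophage markers, 5 of 10 T cell markers and 4 of 8 B and plasma cell markers were called higher and 3 of 6 fibroblast markers lower, where 4.00% of all genes were higher and 2.98% lower. The macrophage sum went from 270 to 286 CPM at 3 months to 383 to 510 at 21 months. Of 13 proliferation markers 4 were lower there, with sums of 114.6 to 161 CPM at 3 months and 76.5 to 93.3 at 21 months, 2 of 5 smooth muscle, 1 of 3 basal cell and 1 of 3 clear cell markers were higher, and 1 of 5 adipocyte markers was lower. The second and the third old library, which had the most Gdf15, also had summed basal cell markers of 10.5 and 8.41 CPM, against 0.790 and 1.73 in the first and the fourth and 1.32 to 2.16 in the young. Beside its rise in the corpus, macrophage markers had sums of 241 to 310 CPM at 3 months and 224 to 281 at 21 months, while 6 of 6 fibroblast markers were lower, as was 1 marker each of smooth muscle, adipocytes and clear cells, and 4 of 8 B and plasma cell markers and 1 of 10 T cell markers were higher, against 1.47% of all genes lower and 1.5% higher. Beside the fall of Lmnb1 in the caput, 5 of 5 smooth muscle, 3 of 6 fibroblast, 2 of 10 germ cell and 1 of 5 Sertoli cell markers were lower, 1 of 6 endothelial markers was higher and 1 lower, and 3 of 10 T cell, 2 of 8 macrophage and 2 of 8 B and plasma cell markers were higher, against 5.05% of all genes lower and 3.09% higher. T cell sums did not overlap between the ages in the caput (4.72 to 7.48 and 11.6 to 18.03 CPM) or in the corpus (12.1 to 15.4 and 22.3 to 24.02 CPM). Of 13 proliferation markers, 1 was lower in the caput, where their sums overlapped (70.4 to 97.6 CPM at 3 months and 74.6 to 88.1 at 21 months), and 2 were lower in the corpus, where they did not (110.8 to 122 and 94.4 to 100.5 CPM). Some markers had no counts in any library of a region, namely the neutrophil markers Ly6g in the vas deferens, corpus and initial segment, Retnlg in the vas deferens and S100a9 in the caput, and the Sertoli cell marker Rhox5 in the initial segment. All other markers of these lists had counts in all 5 regions named here, and the lists' part in these results was not tested.

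Genes that act on the same pathways were followed as lists. Of 14 regulators of the Cdkn2a locus, 5 were higher and 2 lower in the vas deferens, against 11.4% and 8.47% of all genes, with a median log2 fold change of 0.20 against 0.02 for all genes. Cbx7, a Polycomb protein that represses the locus, rose there from 46.7 ± 2.09 to 74.2 ± 6.27 CPM (log2 fold change 0.61 ± 0.08, adjusted p = 9.06e-04). Kdm6b and Kdm2b, both histone demethylases, also rose, by 0.54 ± 0.10 and 0.33 ± 0.08 (adjusted p = 0.00454 and 0.0128). Ezh2, the Polycomb methyltransferase, fell in 4 regions, namely efferent ductules (by 0.85 ± 0.15, adjusted p = 0.0144), initial segment (by 0.82 ± 0.14, adjusted p = 0.00343), caput (by 0.80 ± 0.18, adjusted p = 0.0180) and vas deferens (by 0.46 ± 0.14, adjusted p = 0.0384). In the vas deferens Rnf2 fell by 0.28 ± 0.08 on the log2 scale (adjusted p = 0.0272), and in the caput Kdm6b fell by 0.78 ± 0.15 (adjusted p = 0.0106).

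Among 16 genes of CDK inhibitors and the retinoblastoma pathway, 4 were lower in the caput and none higher, where 5.05% of all genes were lower and 3.09% higher. In the vas deferens 1 was higher and 1 lower, against 11.4% and 8.47% of all genes. Ccnd2, a D-type cyclin, fell in 4 regions, with the lowest fitted value in the vas deferens, from 127 ± 5.94 to 53.5 ± 7.08 CPM (log2 fold change -1.31 ± 0.11, adjusted p = 1.39e-04). Cdk6, a partner of cyclin D, fell by 0.64 ± 0.11 in the efferent ductules and 0.52 ± 0.09 in the caput (adjusted p = 0.0120 and 0.00712). The inhibitor gene Cdkn1c rose by 0.87 ± 0.21 in the efferent ductules and 0.80 ± 0.15 in the vas deferens and fell by 0.84 ± 0.21 in the caput (adjusted p = 0.0344, 0.00491 and 0.0305).

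Among 26 p53 regulators and targets other than Cdkn1a, 3 were higher and 3 lower in the vas deferens, a share near that of all genes (11.4% and 8.47%). Dglucy, Aen and Polk rose there by 0.50 ± 0.13, 0.57 ± 0.12 and 0.44 ± 0.10 on the log2 scale (adjusted p = 0.0193, 0.00752 and 0.00995). Ei24 and Sesn1 fell there by 0.37 ± 0.07 and 0.45 ± 0.12 (adjusted p = 0.00491 and 0.0246). In the caput 4 were higher and none lower, against 3.09% and 5.05% of all genes, with a median of 0.28 against -0.01 for all genes. In the corpus 2 were higher (1.5% of all genes), among them Dglucy (0.57 ± 0.11, adjusted p = 0.00846), and in the initial segment Ckap2, the 1 gene of the list lower there (3.01% of all genes), fell by 1.05 ± 0.27 (adjusted p = 0.0313).

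Of 14 genes of the nuclear lamina and chromatin, 4 were higher and 1 lower in the vas deferens (11.4% and 8.47% of all genes), where Lmnb1 was not called. In the caput 1 of 14 was lower, near the share of all genes (5.05%). This last gene was Emd, which encodes the lamina protein emerin and fell there by 0.67 ± 0.13 (adjusted p = 0.0112), but rose by 0.58 ± 0.08 in the vas deferens and 0.45 ± 0.11 in the efferent ductules (adjusted p = 0.00105 and 0.0374). H2afx, a histone gene of the DNA damage response, rose in the same pair of regions, by 0.93 ± 0.19 and 0.53 ± 0.12 (adjusted p = 0.00670 and 0.0275). H2afy, which encodes macroH2A, rose by 0.60 ± 0.10 in the vas deferens (adjusted p = 0.00342), where Hmgb1 fell by 0.31 ± 0.10 (adjusted p = 0.0451). Lmna, the lamin A gene, fell in the initial segment by 0.42 ± 0.08 (adjusted p = 0.00888).

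Secretory factors were mixed. Of 28 tested in the vas deferens, 9 were higher and 4 lower, against 11.4% and 8.47% of all genes, with a median of 0.57 against 0.02 for all genes. In the caput 3 of 26 were lower and none higher, against 5.05% and 3.09% of all genes. Mmp12, a macrophage metalloelastase, rose in the corpus (5.06 ± 0.95, adjusted p = 0.00697), efferent ductules (3.40 ± 0.76, adjusted p = 0.0275) and initial segment (1.60 ± 0.41, adjusted p = 0.0342). In the corpus it rose from 0.087 CPM, near the floor, to 3.19 ± 3.65, and the old efferent ductules had 13.7 ± 12.8 CPM. In the cauda it went from 65.7 ± 130.5 to 1.93 CPM, a fall that was not called (-5.18 ± 1.90, adjusted p = 0.378). Vegfa rose by 0.68 ± 0.13 in the efferent ductules and 0.67 ± 0.14 in the vas deferens (adjusted p = 0.0179 and 0.00925). Angptl4 fell by 0.89 ± 0.24, 0.91 ± 0.17 and 1.16 ± 0.16 in the initial segment, caput and corpus (adjusted p = 0.0422, 0.00828 and 5.92e-04).

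Others of the secretory list went in both directions between regions. Tgfb1 fell in the initial segment (-0.55 ± 0.12, adjusted p = 0.0105) and caput (-0.55 ± 0.13, adjusted p = 0.0256) and rose in the vas deferens (0.78 ± 0.12, adjusted p = 0.00243). Igfbp5 rose in the testis (1.31 ± 0.25, adjusted p = 0.0132) and fell in the caput (-0.48 ± 0.12, adjusted p = 0.0295) and cauda (-0.96 ± 0.14, adjusted p = 0.0355). Igfbp7 rose in the vas deferens (0.61 ± 0.07, adjusted p = 8.37e-04) and fell in the corpus (-0.37 ± 0.10, adjusted p = 0.0462).

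Il6 itself had too few counts, but 4 of 11 genes of its signalling route were higher and 1 lower in the vas deferens, where 11.4% of all genes were higher and 8.47% lower, the latter near the share of the list. Cebpb, a transcription factor induced by interleukin 6, rose from 8.49 ± 1.57 to 19.1 ± 3.23 CPM there (log2 fold change 1.11 ± 0.18, adjusted p = 0.00220) and by 1.22 ± 0.12 in the efferent ductules (adjusted p = 0.00317). Socs3, the feedback inhibitor, rose by 1.37 ± 0.27 and Jak2 by 0.52 ± 0.13 in the vas deferens (adjusted p = 0.00654 and 0.0159). Lifr, a receptor of the same family, fell there by 0.25 ± 0.07 (adjusted p = 0.0283) and rose in the caput by 0.33 ± 0.09 (adjusted p = 0.0455).

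Of the integrated stress response, the route through which Gdf15 is often induced, 3 of 9 tested genes were higher and none lower in the vas deferens, where 11.4% of all genes were higher. Atf3 rose there by 1.66 ± 0.33, Atf4 by 0.38 ± 0.10 and Ddit3 by 0.54 ± 0.16 (adjusted p = 0.00670, 0.0244 and 0.0349). In the efferent ductules, where Gdf15 rose, 1 of 9 was called, Sesn3, which fell by 0.44 ± 0.12 (adjusted p = 0.0457), where 2.98% of all genes were lower and 4.00% higher. In the corpus, where Gdf15 also rose, edgeR and DESeq2 each called 0 of 9 (edgeR called 1.5% of all genes higher and 1.47% lower there), and 3 of them had an unadjusted p under 0.05 by edgeR.

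Of 21 lysosomal genes other than Glb1, 8 were lower and 1 higher in the vas deferens, against 8.47% and 11.4% of all genes, with a median of -0.08 against 0.02 for all genes. Lamp2 fell there by 0.57 ± 0.07, Arsa by 0.65 ± 0.09 and Manba by 0.56 ± 0.09 (adjusted p = 8.37e-04, 0.00160 and 0.00242). In the efferent ductules and caput 3 each were higher and none lower, where 4.00% and 3.09% of all genes were higher, with medians of 0.24 and 0.21 against -0.04 and -0.01 for all genes. Fuca1 rose in the caput by 0.51 ± 0.10 (adjusted p = 0.0106), and Naglu rose in the efferent ductules by 0.52 ± 0.10 (adjusted p = 0.0173) and fell in the vas deferens by 0.43 ± 0.08 (adjusted p = 0.00607).

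**Figure D5:**
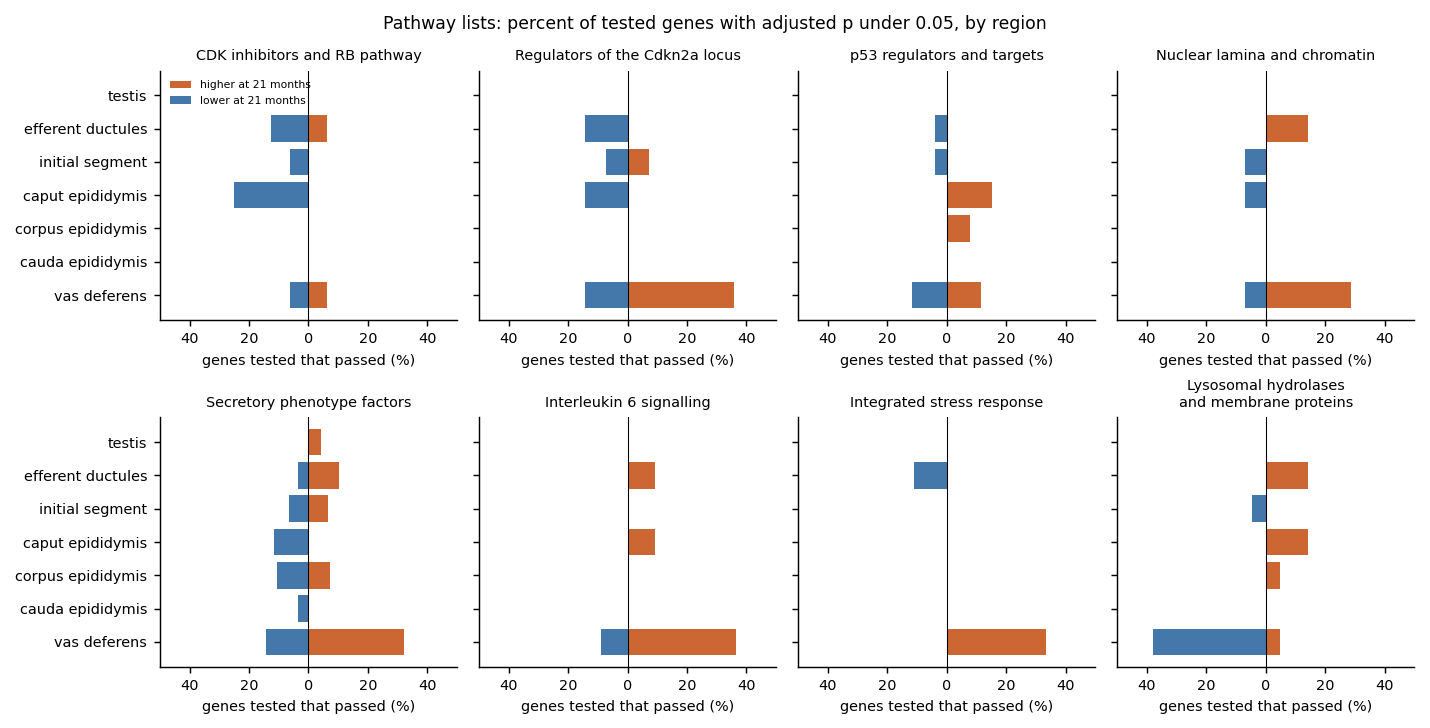
Percent of the tested genes of each of 8 pathway lists with an adjusted p under 0.05 (horizontal axis, orange to the right for higher and blue to the left for lower at 21 months) in each region (vertical axis). The vas deferens carries more calls than any other region, where 11.4% of all genes were higher and 8.47% lower, with 8 of 21 lysosomal genes lower and 4 of 11 interleukin 6 signalling genes higher.

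The pattern of each gene over the 14 group means was compared with that of all others by Pearson's r on log2(CPM + 1). These means share mice and dissections within an age, so r is given as a description. Closest to Cdkn2a were Igkv4-63 (0.989), Gimap1os (0.969) and Gm47782 (0.969), and to Cdkn2b were Macrod2 (0.951), Zcchc9-ps (0.933) and Hectd2 (0.930). Closest to Cdkn1a were Pnkd (0.980), Ank (0.977) and Psat1 (0.974), and to Trp53 were Xpa (0.966) and Hebp1 (0.961). Lmnb1 was nearest to Hoxd3os1 (0.938), Mrpl12 (0.933) and 4933440N22Rik (0.923), and Gdf15 to E030030I06Rik (0.955), Cd209d (0.955) and Tle4 (0.931). Glb1 was nearest to Rbm10 (0.983), Tdg (0.983) and Jpt2 (0.974). The nearest genes to Il6 were 3 pseudogenes (at most 0.790), at a level too low to be read.

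Among the members themselves, Cdkn1a and Gdf15 were the most alike over the 14 means (r = 0.817), both being high in the corpus and cauda, and Cdkn1a and Glb1 followed (r = 0.724). Cdkn2b ran opposite to Gdf15 (r = -0.807) and Cdkn1a (r = -0.755). Cdkn2a and its neighbour on chromosome 4, Cdkn2b, had r = 0.447. Trp53 and its target Cdkn1a had r = 0.237.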

How the data were processed

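RNA was measured by total RNA sequencing of 56 libraries from 7 regions of the male tract at 3 and 21 months. Per the labels and the study's methods, the authors trimmed paired 150-base reads with cutadapt, aligned them to mm10 (GRCm38) with HISAT2 and deposited HTSeq counts per gene, with versions and the counting annotation not given in the sources used here. Reads that several genes share may be missing from such counts.

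From these counts, each region was fitted on its own with edgeR 4.0.16 (quasi-likelihood F-test, TMM scaling, genes with at least 10 counts over the libraries of the fit). Benjamini-Hochberg adjustment ran over all genes tested, and an adjusted p under 0.05 was called. Differences of the age effect, and between regions, came from fits of all 56 libraries, or of 28 at one age. Errors of log2 fold changes are SE, and those of CPM are SD over 4 libraries. The libraries held 11125279 to 20561967 counts, and intervals cover counting error only. Per the study, the regions came from the same 4 mice of an age, but the labels do not tie library numbers to mice. The fits were tested on simulated counts. DESeq2 1.42.0, other scalings, filters and left-out libraries were alternatives. Genes of the lists were named by their number of regions called and then by adjusted p, at most 3 a list and direction. Members and lists were chosen with earlier results of these data known. Some genes that the naming rule gives are not reported here.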

Additional observations from a re-analysis of the deposited data

Results flagged for a closer look

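In 12 of 89 groups of 4 libraries with at least 10 counts of a member, 1 library lay far from the other 3 by Dixon's test, where chance gives about 1 in 20. For Cdkn2a this was the third old cauda library (0.913 CPM). For Cdkn2b it was the fourth young initial segment library (5.42 CPM) and the third young corpus library (1.31 CPM), and for Cdkn1a the third young libraries of the initial segment (6.14 CPM) and vas deferens (16.0 CPM). The first young caput library stood high for both Trp53 (45.6 CPM) and Lmnb1 (16.2 CPM). For Lmnb1 the fourth old caput library (12.1 CPM) and the first old initial segment library (10.4 CPM) also lay apart, as did the first young corpus library for Gdf15 (6.70 CPM). For Glb1 it was the first young library of the efferent ductules (48.8 CPM) and the second old cauda library (65.1 CPM).

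The age effect differed among the 7 regions, by a test of that difference, for Cdkn2a (adjusted p = 0.0144), Cdkn2b (adjusted p = 0.00404) and Glb1 (adjusted p = 0.00738). The causes of these patterns were not tested.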

How the results depend on the processing

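No result changed its direction while called. Of 1001 comparisons of a result with its value under another setting, 33 differed in sign, none of them called under either, and the largest of these log2 fold changes was 0.284 in size. The 6 calls of an age effect became between 3 and 6 when 1 library number of an age was left out, with 3 left without the young libraries numbered 3. They were 7 with DESeq2, 4 under scaling by library size alone, and 5 with the low-count filter of edgeR. After the data were seen, fits were added without the shallow old libraries 1 and 4 of the efferent ductules (8 calls) and without the cauda libraries that stood apart (7 calls). The 3 calls of a different age effect among regions became 1 under library size alone and 5 with DESeq2, which added Trp53 (adjusted p = 0.0267) and Lmnb1 (adjusted p = 0.0317), and between 0 and 3 when 1 library number was left out. The share of calls that were higher moved, over all genes, under library size alone from 62.7% to 52.4% in the testis, from 57.3% to 7.66% in the efferent ductules and from 50.5% to 30.6% in the corpus. Under the scaling over 56 libraries it moved to 42.3% in the efferent ductules, from 52.6% to 24.9% in the initial segment and from 57.4% to 70.6% in the vas deferens. The causes of these shifts were not tested.

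Equal library numbers of the 2 ages cannot mark the same mouse, since the ages were different mice. Within regions, these same-numbered libraries had mean correlations of their deviations between -0.0381 and 0.073, and not every pair exceeded 0.1. Between regions at 3 months, same-numbered libraries had a mean of 0.0359 (-0.34 to 0.385), against -0.0128 for different numbers. Of these 84 same-numbered pairs, 20 exceeded 0.1. At 21 months the means were 0.00469 (-0.254 to 0.284) and -0.00176, with 12 of 84 pairs above 0.1. These values do not settle whether a number marks a mouse. With the replicate number as a block, 5 age effects were called, the fall of Lmnb1 being lost (adjusted p = 0.0739), and 3 differences among regions.

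Depth limited Cdkn2a outside the testis and Il6 everywhere.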
